A study of Homo sapiens with 6 samples.

Results

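The genes described here are the subunits, kinases, phosphatases and transcription factors of the pathway from insulin receptor signalling through phosphoinositide 3-kinase (PI3K) and AKT to the TOR complexes and the FOXO factors, in LN229 cells, an established human glioblastoma line. They were taken by gene symbol from a fixed list of 36 names, and 35 of these stood among the 24480 symbols of the table. IGF1R, a receptor tyrosine kinase, was not analysed here. RNA-seq compared 3 libraries of cells transduced with vector with 3 libraries of cells transduced with LACTB, the gene of a mitochondrial protein that resembles bacterial beta-lactamases. The labels give no further genotype, drug or time point, and do not say whether the transduced cells were a pool or a clone. The study asked what LACTB does in glioma cells.

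In this pathway, an activated receptor such as the insulin receptor phosphorylates adaptor proteins, which recruit class I PI3K through its regulatory p85 subunit. The catalytic p110 subunit then makes the membrane lipid PIP3, which brings PDPK1 and AKT together, and lipid phosphatases remove it again. AKT phosphorylates and restrains GSK3, the TSC complex and the FOXO factors. When TSC is restrained, the small GTPase RHEB activates the TOR kinase in complex 1 (with RPTOR), which drives S6 kinases and protein synthesis, while TOR in complex 2 (with RICTOR) phosphorylates AKT itself. FOXO factors kept out of the nucleus by AKT no longer switch on their target genes, and several upstream genes, among them those for the insulin receptor and IRS2, are known FOXO targets. The data are transcript levels and hold no measure of phosphorylation or protein.

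Values are normalised read counts, and differences are LACTB minus vector on the scale of log2(value + 1). A gene was tested if its mean reached 1 CPM, here 37.7 normalised counts, and 12939 genes did. A gene is said to have risen or fallen if limma's test gave an adjusted p under 0.05. LACTB itself stood at 458, 515 and 393 in the vector libraries and at 4268, 4078 and 4203 in the LACTB libraries, 9.19-fold higher (limma adjusted p = 2.9e-14). Column totals ran from 34907025 to 41384269, and the highest LACTB total, 35683521, was below the lowest vector total, 38049107. Scaling all columns to equal totals moved the median difference of all tested genes from 0.05 to 0.24, and median centring moved it to -0.09. Of 8 glial and neural stem markers, all tested, 5 rose (GFAP, SOX2, SOX9, VIM and CD44), S100B and OLIG2 fell, and NES did not pass the test. NES, VIM, CD44 and S100B were abundant, while GFAP, the defining marker of astrocytes, was low at 72.3 to 126 and SOX9 at 8.57 to 80.3. SOX9 reached the filter only through its LACTB values (mean 65.6, against 10.8 in vector libraries). The immune genes PTPRC, CD3E and AIF1 lay between 0 and 14.6, and the epithelial genes EPCAM between 0 and 2.1 and CDH1 between 0 and 20.9. CD68, also a lysosomal protein of other cells, rose by 0.59 (adjusted p = 0.00032). Among neuron and endothelial markers SYT1 rose from a mean of 123 to 379 (1.66, adjusted p = 2.3e-06), and SNAP25 (407 to 314) and VWF (145 to 116) were present and did not pass the test. SYP (129 to 91.6) and PECAM1 (44.9 to 47.1) did not pass it either. The neuron gene RBFOX3 and the endothelial genes CDH5 and CLDN5 were below the filter, with values from 1.55 to 32.9. SNAP25 fell after median centring, with quantile normalization and with length and GC removed (-0.52, limma adjusted p = 0.024 in the last). The part of these markers in the results was not tested. Vector library 1 held the lowest vector value for 17 of the 34 tested members (50%) and for 36.8% of all tested genes, and its part in the results was tested by leaving it out.

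Of the 34 members that reached the filter, 15 rose and 8 fell with LACTB, and 11 did not pass the test. In bulk RNA, a change in the share of cells that express a gene and a change within each cell cannot be told apart. The called genes are 67.6% of the members, against 51.9% of all 12939 tested genes (27.4% rose and 24.6% fell). The median difference of the members was 0.22, against 0.05 for all tested genes. The 3 LACTB values lay wholly above the 3 vector values for 13 members and wholly below them for 8, or 61.8% together, against 59.7% of all tested genes (31.1% above and 28.7% below). Differences of at least 0.58, about 1.5-fold, were found for 10 of the genes that rose (PIK3CA, PIK3C2A, PIK3R1, PIK3R4, PHLPP2, RICTOR, FOXO3, IRS1, IRS2 and GSK3B) and for 4 of those that fell (PIK3C2B, RPS6KB2, FOXO4 and INSR). The share of all tested genes that passed the test with such a difference was not computed, so these counts have no background. With equal column totals 19 members rose and 2 fell (61.8%), against 38.4% and 14.8% of all tested genes (53.2% together). After median centring 10 rose and 9 fell (55.9%), against 20.7% and 32.1% (52.8% together). With quantile normalization 14 rose and 4 fell (52.9%), against 24.8% and 25.5% (50.3% together).

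**Figure D1:**
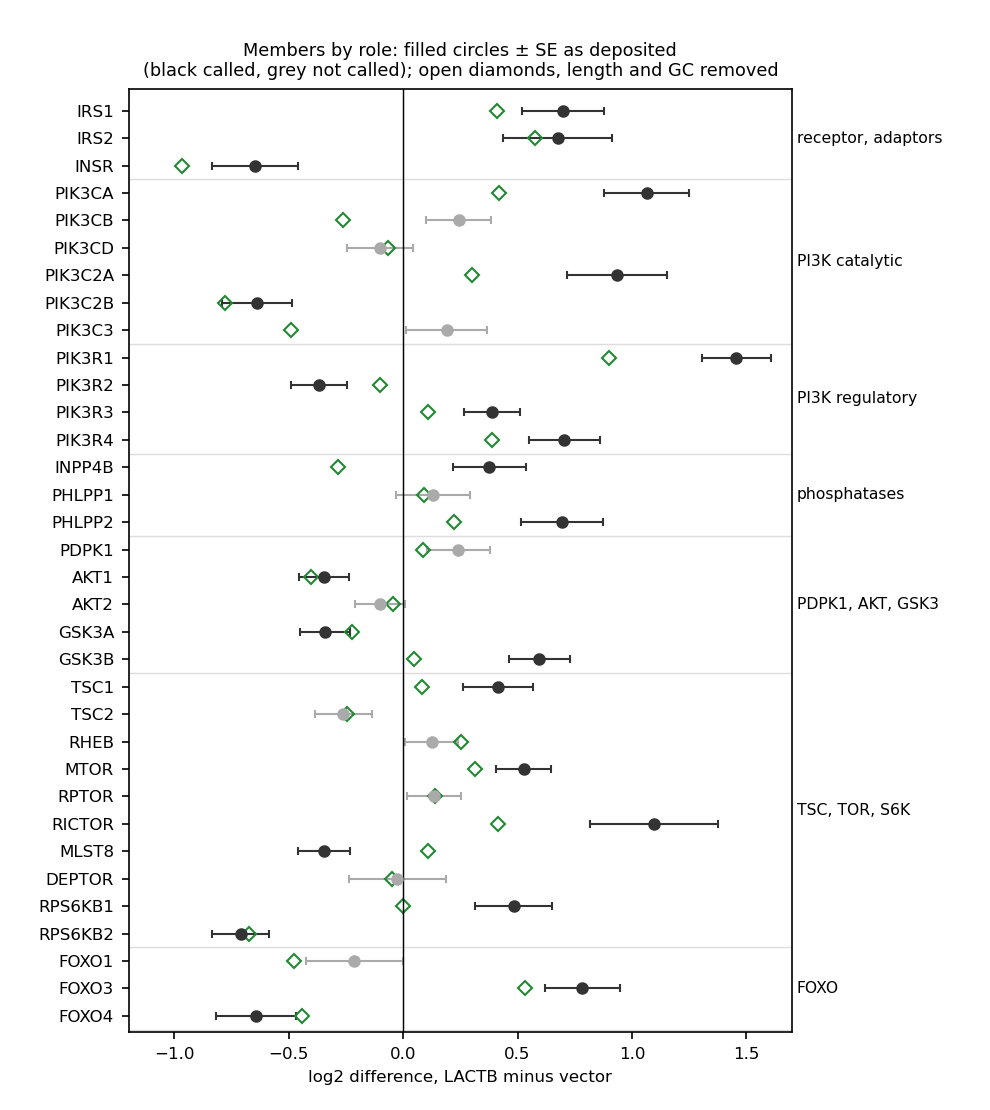
Log2 difference (LACTB minus vector, x axis) of the 34 tested members, grouped by role, from 3 vector and 3 LACTB libraries. Filled circles with SE bars are the deposited values (black where the limma adjusted p is under 0.05, grey otherwise) and open diamonds are the values after removal of transcript length and GC. Of the filled circles, PIK3R1 lies farthest right at 1.46 and RPS6KB2 farthest left at -0.71.

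The size of a difference went with the length and GC content of the transcript. The 15 members that rose had a median longest transcript of 8227 bases and 43.9% GC, and the 8 that fell had 4780 bases and 56.9% GC. The same held over the whole table, where genes that rose had medians of 5165 bases and 42.8% GC and genes that fell 2631 bases and 55.1% GC. Across the 34 members, Spearman's rho of the difference was -0.65 with GC and 0.47 with length, and across 12710 tested genes it was -0.45 and 0.41. These are descriptions, since all points come from the same 6 libraries. When a smooth dependence on length and GC was removed from each library, 8 members rose and 8 fell, or 47.1%, against 48.6% of all genes (23.7% rose and 24.9% fell). Of these, 7 that rose (PIK3CA, PIK3R1, PIK3R4, MTOR, FOXO3, IRS1 and IRS2) and 6 that fell (PIK3C2B, AKT1, GSK3A, RPS6KB2, FOXO4 and INSR) had passed as deposited too. RHEB rose, and PIK3C3 and TSC2 fell, after the removal but not as deposited. What sets the dependence on length and GC was not tested.

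**Figure D2:**
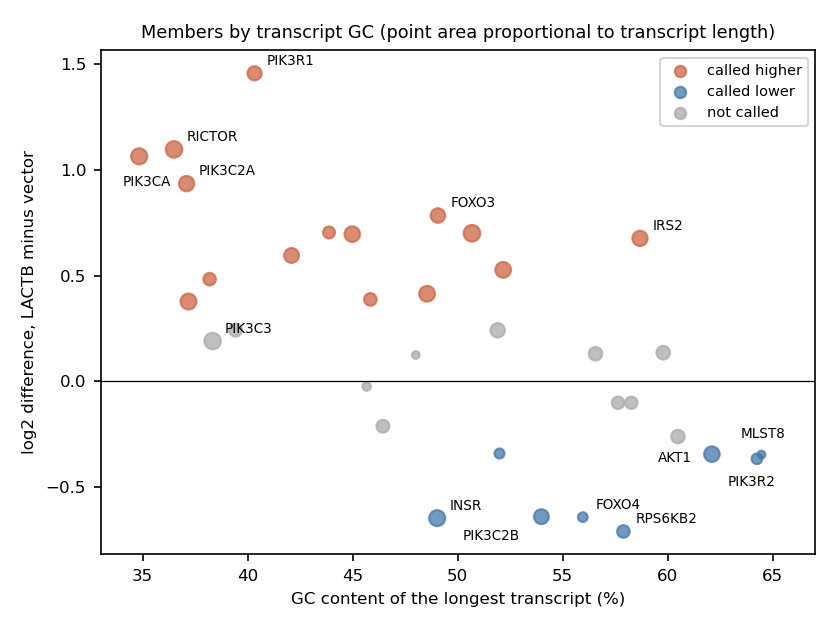
Log2 difference (LACTB minus vector, y axis) of the 34 tested members against the GC content of the longest transcript in percent (x axis), with point area proportional to transcript length. Members that rose have a median GC of 43.9% and members that fell 56.9%; IRS2 is a member that rose at 58.7% GC and INSR one that fell at 49.0%.

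Levels per kilobase of the longest transcript spanned a wide range within the pathway. In vector cells RHEB was highest at 3241 ± 380 normalised counts per kilobase (SD, n = 3). MLST8 at 1628 ± 185, AKT2 at 1443 ± 133, GSK3A at 1399 ± 103, AKT1 at 1355 ± 95.6 and PIK3R2 at 1228 ± 214 came next, neighbours whose spreads overlap. PIK3CA at 17.0 ± 1.97 and RICTOR at 12.7 ± 6.39 were the lowest of the tested members, and PIK3C2A at 19.0 ± 4.48 overlaps both. With LACTB the 3 lowest were INSR at 22.8 ± 4.29, RICTOR at 25.6 ± 6.22 and PIK3CA at 35.6 ± 0.333, and the spreads of INSR and RICTOR overlap. PIK3C2A at 36.5 ± 8.96 overlaps RICTOR and PIK3CA. The genes for the AKT kinases and for the p85 beta subunit were thus read far more often per base than those for p110 alpha and the scaffold of TOR complex 2.

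**Figure D3:**
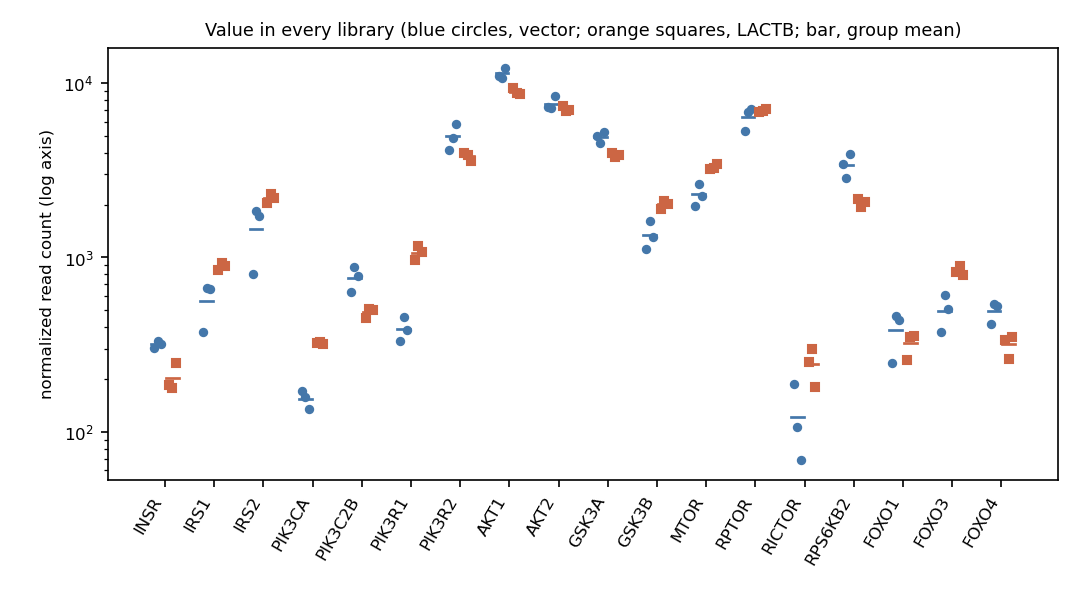
Normalised read counts (y axis, log scale) of 18 members in every library, with blue circles for vector, orange squares for LACTB and bars for the group means. PIK3CA, PIK3R1, MTOR and FOXO3 have all 3 LACTB values above all 3 vector values, RPS6KB2, FOXO4 and INSR have them below, and AKT2, RPTOR and FOXO1 overlap.

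Promoters were compared because members rose and fell in opposite directions within gene families. RefSeq (GRCh38.p14) promoters matched 32 of the 34 tested members, 23 of them with a single start, and 7017 tested genes with a single start served as the comparison. In the 250 bases before the start, 8 motifs were searched on both strands, and matches of different motifs could overlap. They were the FOXO consensus GTAAACA, the E-box CACGTG, the SP1 box GGGCGG, the CCAAT box, the ETS motif CCGGAAG, the CRE core TGACGT, the AP-1 motif TGANTCA and the TATA box TATAAA. The FOXO consensus stood in 1.77% of the 7017 promoters and in 1 of the 23 members, PIK3CA. A CCAAT box stood in 36.9% of the 7017, in 34.0% of those of genes that rose and in 36.5% of those of genes that fell. Among the members it stood in 7 of the 11 that rose (GSK3B, IRS2, MTOR, PHLPP2, PIK3C2A, PIK3CA and RICTOR) and in 0 of the 6 that fell. Of the 6 that did not pass the test, FOXO1, PDPK1, PIK3C3 and RHEB also held it, which made 11 of all 23 members. GGGCGG stood in 17 of the 23 members and in 70.6% of all. The E-box was in 0 of the 23 windows, against 9.28% of all, and the ETS motif was in 5, against 18.1% of all. CRE, AP-1 and TATA motifs were each in 1 member, namely RHEB, FOXO4 and RPTOR, against 11.2%, 3.56% and 4.72%. These are matches of letters, with no test. The windows of 4 members that passed the test under every alternative are shown 5′ to 3′, with FOXO and CCAAT matches in capitals. Matches on the other strand read TGTTTAC for the FOXO consensus and ATTGG for the CCAAT box. PIK3R4, which rose, and RPS6KB2, which fell, also have a single start and passed under every alternative. Their windows hold neither motif and are not shown. PIK3CA (chr3:179148107-179148356, plus strand) holds both motifs, MTOR (chr1:11262552-11262801, minus strand) holds 3 CCAAT boxes, and IRS1 (chr2:226799821-226800070, minus strand), which also rose, and PIK3C2B (chr1:204494806-204495055, minus strand), which fell, hold neither. The PIK3CA window overlaps the first exon of 1 GENCODE transcript and lies before the starts of the others near it.
PIK3CA: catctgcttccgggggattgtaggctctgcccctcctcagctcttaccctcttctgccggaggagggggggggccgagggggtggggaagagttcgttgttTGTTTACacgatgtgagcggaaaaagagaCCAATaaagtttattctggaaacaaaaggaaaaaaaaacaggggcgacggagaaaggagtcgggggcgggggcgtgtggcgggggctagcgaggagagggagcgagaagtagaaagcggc
MTOR: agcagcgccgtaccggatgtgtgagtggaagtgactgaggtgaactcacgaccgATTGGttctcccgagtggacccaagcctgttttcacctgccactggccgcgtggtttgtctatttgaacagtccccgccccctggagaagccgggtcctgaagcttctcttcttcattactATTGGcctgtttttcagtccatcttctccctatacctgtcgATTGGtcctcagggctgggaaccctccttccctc
IRS1: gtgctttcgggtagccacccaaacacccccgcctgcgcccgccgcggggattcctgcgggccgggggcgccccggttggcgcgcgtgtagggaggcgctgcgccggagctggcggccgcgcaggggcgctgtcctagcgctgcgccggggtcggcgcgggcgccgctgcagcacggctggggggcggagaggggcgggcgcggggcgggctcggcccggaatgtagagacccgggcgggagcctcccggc
PIK3C2B: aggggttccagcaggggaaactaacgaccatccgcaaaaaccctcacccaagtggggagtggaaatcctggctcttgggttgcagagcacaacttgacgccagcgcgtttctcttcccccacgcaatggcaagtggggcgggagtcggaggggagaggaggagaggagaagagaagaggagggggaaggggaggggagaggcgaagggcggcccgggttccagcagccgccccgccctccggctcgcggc
The IRS1 window is 80.8% GC and that of PIK3C2B 65.2%, against a median of 65.6% over the 7017 promoters, and each holds 4 GGGCGG boxes.

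At the top of the pathway, the 2 insulin receptor substrates rose and the insulin receptor fell. INSR, the receptor itself (chromosome 19, 7112255 to 7294034, minus strand, GRCh38), stood at 303, 332 and 318 normalised counts in vector and 186, 179 and 249 in LACTB libraries. All LACTB values were below all vector values, and the mean went from 318 ± 14.7 to 204 ± 38.4 (SD, n = 3 each). INSR fell by 0.65 (SE 0.19, limma adjusted p = 0.0062), and by 0.97 with length and GC removed (adjusted p = 0.00038). With equal column totals its difference was -0.46 and missed the threshold (adjusted p = 0.057).

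IRS1, which couples the receptor to PI3K (chromosome 2, 226731317 to 226799759, minus strand), stood at 371, 665 and 659 in vector and 844, 929 and 892 in LACTB libraries. The groups did not overlap, but vector library 1 was well under the other vector libraries. IRS1 rose 1.57-fold, a difference of 0.70 (SE 0.18, adjusted p = 0.0026), of 0.42 without vector library 1 (adjusted p = 0.0058) and of 0.41 with length and GC removed (adjusted p = 0.027). IRS2, its paralog (chromosome 13, 109752698 to 109786568, minus strand), showed the same low library, with 806, 1849 and 1724 in vector against 2056, 2321 and 2198 in LACTB libraries. Its difference was 0.68 (SE 0.24, adjusted p = 0.03), and 0.29 without vector library 1 (adjusted p = 0.017). IRS2 lost its call after median centring (0.54, adjusted p = 0.098) and without LACTB library 1, 2 or 3 (0.72, 0.63 and 0.67, adjusted p = 0.15, 0.23 and 0.24).

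Among the PI3K catalytic subunits, PIK3CA and PIK3C2A rose, PIK3C2B fell, and PIK3CB, PIK3CD and PIK3C3 did not pass the test. PIK3CA encodes p110 alpha, the class I subunit that insulin signalling mainly uses (chromosome 3, 179148114 to 179240093, plus strand). It stood at 170.4, 159 and 135 in vector libraries and at 325, 326 and 319.9 in LACTB libraries. The LACTB values were tightly grouped, far above the highest vector value. The mean went from 155 ± 18.0 to 323 ± 3.03 (SD, n = 3 each), 2.09-fold, a difference of 1.06 (SE 0.19, adjusted p = 6.9e-05). With length and GC removed the difference was 0.42 (adjusted p = 0.032), and the call held under all 17 alternative settings. PIK3CB, for p110 beta, read 819, 1169 and 947 in vector and 1071, 1247 and 1123 in LACTB libraries, which overlap. Its difference was 0.24 (adjusted p = 0.15), but 0.43 with equal totals (adjusted p = 0.031) and 0.38 if vector library 2 was left out (adjusted p = 0.032). Removal of length and GC turned it to -0.26 (adjusted p = 0.091). PIK3CD, for p110 delta, the form best known from leukocytes, lay at 649 to 806 in vector and 647 to 752 in LACTB libraries.

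The 2 class II subunits, which make other phosphoinositides on endosomes and at the plasma membrane, went opposite ways. PIK3C2A (chromosome 11, 17077730 to 17207983, minus strand) stood at 165, 188 and 116 in vector and 258, 385 and 257 in LACTB libraries, with no overlap. It rose by 0.94 (SE 0.22, adjusted p = 0.0012), but its difference was 0.30 with length and GC removed (adjusted p = 0.17). PIK3C2B (chromosome 1, 204422628 to 204494724, minus strand) stood at 630.1, 881 and 780.4 in vector and 449, 505 and 502 in LACTB libraries. Every LACTB value was below every vector value. PIK3C2B fell by 0.64 (SE 0.15, adjusted p = 0.0014) and by 0.78 with length and GC removed (adjusted p = 8.4e-05), and the call held under all 17 alternatives. PIK3C3, the class III enzyme of autophagy and endosome traffic, lay at 628 to 1155 in vector and 835 to 999 in LACTB libraries. It differed by 0.19 (adjusted p = 0.38), by 0.46 without vector library 1, where its value was highest (adjusted p = 0.0049), and by -0.49 with length and GC removed (adjusted p = 0.033).

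Of the regulatory subunits, PIK3R1, PIK3R3 and PIK3R4 rose and PIK3R2 fell, and PIK3R1 had the smallest adjusted p of all members. PIK3R1 encodes p85 alpha, which stabilises p110 and holds it inactive until a receptor or adaptor binds (chromosome 5, 68215720 to 68301821, plus strand). It stood at 333, 453 and 385 in vector libraries and at 969, 1158 and 1075 in LACTB libraries. The lowest LACTB value was far above the highest vector value. The mean went from 390.2 ± 60.3 to 1068 ± 94.6 (SD, n = 3 each), 2.74-fold, a difference of 1.46 (SE 0.15, adjusted p = 8.6e-08). With length and GC removed PIK3R1 was still higher by 0.90 (adjusted p = 6.4e-05), and over all 17 alternatives the difference ran from 0.90 to 1.65.

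PIK3R2, for p85 beta (chromosome 19, 18153118 to 18170540, plus strand), went the other way, with 4135, 4871 and 5852 in vector and 3961, 3861 and 3591 in LACTB libraries. The groups did not overlap, but the highest LACTB value came close to the lowest vector value. PIK3R2 fell by 0.37 (SE 0.12, adjusted p = 0.016), and missed the threshold with equal totals (-0.18, adjusted p = 0.24), if vector library 3 (-0.24, adjusted p = 0.094) or LACTB library 3 (-0.33, adjusted p = 0.078) was left out, and once length and GC were removed (-0.10, adjusted p = 0.25). PIK3R3, for the short subunit p55 gamma, read 1439.85, 1435 and 1394 in vector and 1619, 1905 and 2089.8 in LACTB libraries. It rose by 0.39 (SE 0.12, adjusted p = 0.011), with 0.37 (adjusted p = 0.055) and 0.30 (adjusted p = 0.12) without LACTB library 2 or 3, 0.25 after median centring (adjusted p = 0.094) and 0.11 once length and GC were removed (adjusted p = 0.36). PIK3R4, the partner of PIK3C3 (chromosome 3, 130678935 to 130746829, minus strand), read 509, 548 and 412 against 683, 867 and 841, with no overlap. It rose by 0.70 (SE 0.16, adjusted p = 0.00068) and by 0.39 with length and GC removed (adjusted p = 0.015), and its call held under all 17 alternatives.

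Of the phosphatases, which oppose the pathway, PHLPP2 and INPP4B rose as deposited, and neither kept its call with length and GC removed. PHLPP2, which dephosphorylates AKT (chromosome 16, 71637835 to 71724701, minus strand), stood at 251, 315 and 222 in vector and 452, 366 and 453 in LACTB libraries. All LACTB values were higher, by 0.70 in the fit (SE 0.18, adjusted p = 0.0026) and by 0.22 with length and GC removed (adjusted p = 0.23). Its paralog PHLPP1 lay at 817 to 1438 in vector and 1159 to 1326 in LACTB libraries (0.13, adjusted p = 0.52; -0.11 without vector library 1, adjusted p = 0.39). INPP4B, which removes a phosphate from a product of PI3K, lay at 373 to 505 in vector and 532 to 599 in LACTB libraries. Its rise of 0.38 was just past the threshold (adjusted p = 0.049) and was lost in 11 of 17 alternatives, among them each of 5 in which 1 library was left out (0.27 to 0.41, adjusted p from 0.082 to 0.19). With length and GC removed INPP4B differed by -0.28 (adjusted p = 0.066). INPP5D, a lipid phosphatase of blood cells, was below the filter and not tested, with 2.14, 4.33 and 0.0313 in vector and 8.36, 10.1 and 27.2 in LACTB libraries.

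In the middle of the pathway AKT1 and GSK3A fell, GSK3B rose, and PDPK1 and AKT2 did not pass the test. PDPK1, the kinase that switches AKT on, read 806, 1072 and 893 in vector and 1070.4, 1178 and 1009.6 in LACTB libraries, which overlap. Its difference was 0.24 (adjusted p = 0.14), with equal totals 0.43 (adjusted p = 0.025) and without vector library 2 0.35 (adjusted p = 0.041). It was 0.11 after median centring (adjusted p = 0.52), 0.15 without vector library 1 (adjusted p = 0.3) and 0.09 once length and GC were removed (adjusted p = 0.48). AKT1 (chromosome 14, 104769349 to 104795751, minus strand) stood at 11059, 10780.3 and 12288 in vector and 9337, 8833 and 8663 in LACTB libraries, with no overlap. AKT1 fell by 0.35 (SE 0.11, adjusted p = 0.012) and by 0.40 with length and GC removed (adjusted p = 0.006). The call was lost with equal totals (-0.15, adjusted p = 0.18), with quantile normalization (-0.16, adjusted p = 0.15), and without LACTB library 2 (-0.34, adjusted p = 0.067) or 3 (-0.32, adjusted p = 0.079). AKT2, the paralog most tied to insulin action, read 7313, 7171 and 8459 in vector and 7362, 6969 and 6989 in LACTB libraries. These overlap, with a difference of -0.10 (adjusted p = 0.45) that was 0.09 with equal totals.

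The GSK3 kinases, which AKT inhibits, also parted. GSK3A (chromosome 19, 42230186 to 42242625, minus strand) read 4965, 4549 and 5273 in vector and 3995, 3761 and 3892 in LACTB libraries, all lower. GSK3A fell by 0.34 (SE 0.11, adjusted p = 0.012), and missed the threshold with equal totals (-0.15, adjusted p = 0.2), with quantile normalization (-0.19, adjusted p = 0.1) and without LACTB library 2 (-0.32, adjusted p = 0.081) or 3 (-0.34, adjusted p = 0.057). GSK3B (chromosome 3, 119821323 to 120094417, minus strand) read 1112, 1623 and 1319 in vector and 1906, 2121 and 2029 in LACTB libraries, all higher. Its rise of 0.59 (SE 0.13, adjusted p = 0.00078) was 0.05 with length and GC removed (adjusted p = 0.73).

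Of the 10 genes for the TSC complex, RHEB, the TOR complexes and the S6 kinases, 4 rose (TSC1, MTOR, RICTOR and RPS6KB1), 2 fell (MLST8 and RPS6KB2) and 4 did not pass the test. TSC1, the stabilising subunit of TSC, read 568, 734 and 524 in vector and 859, 840.3 and 718 in LACTB libraries, which overlap in 1 library of each group. TSC1 rose by 0.41 (SE 0.15, adjusted p = 0.026), but missed the threshold after removal of length and GC (0.08, adjusted p = 0.59), after median centring (0.28, adjusted p = 0.11), or without vector library 3, LACTB library 1 or LACTB library 2 (0.31, 0.37 and 0.38, adjusted p = 0.12, 0.1 and 0.093). TSC2, which switches RHEB off, read 3414, 4479 and 4754 in vector and 3519, 3598 and 3330.5 in LACTB libraries. Its low value in vector library 1 falls among the LACTB values, and the difference of -0.26 (adjusted p = 0.08) was -0.41 without that library (adjusted p = 0.001), -0.39 after median centring (adjusted p = 0.014) and -0.24 once length and GC were removed (adjusted p = 0.0087). RHEB itself read 7558, 6626 and 5992 against 7563, 6972 and 7359.9. These overlap, and the difference of 0.12 (adjusted p = 0.38) was 0.32 with equal totals (adjusted p = 0.021), 0.30 with quantile normalization (adjusted p = 0.023), 0.25 with length and GC removed (adjusted p = 0.012) and -0.01 after median centring (adjusted p = 0.96).

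MTOR, the kinase shared by both complexes (chromosome 1, 11106535 to 11262507, minus strand), stood at 1978, 2652 and 2268 in vector libraries and at 3208, 3247 and 3419 in LACTB libraries. All 3 LACTB values were above the vector values. The mean went from 2299 ± 338 to 3291 ± 113 (SD, n = 3 each), 1.43-fold, a difference of 0.53 (SE 0.12, adjusted p = 0.00093). The call held under all 17 alternatives, with a difference of 0.32 with length and GC removed (adjusted p = 0.0042). RPTOR, the scaffold of complex 1, read 5315, 6815 and 7086 in vector and 6877, 6925 and 7139.6 in LACTB libraries. These overlap, with a difference of 0.14 (adjusted p = 0.35) that was 0.33 with equal totals (adjusted p = 0.031) and 0.30 with quantile normalization (adjusted p = 0.033), but 0.003 after median centring (adjusted p = 0.99) and 0.01 without vector library 1 (adjusted p = 0.96).

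RICTOR, the scaffold of complex 2 (chromosome 5, 38937919 to 39074408, minus strand), was low and variable, with 188, 107 and 68.5 in vector and 252, 299 and 181 in LACTB libraries. The lowest LACTB value was below the highest vector value. RICTOR rose by 1.10 (SE 0.28, adjusted p = 0.0026), but its difference was 0.42 with length and GC removed (adjusted p = 0.23), where its 50 neighbouring tested genes had a median of 0.46. MLST8, a subunit of both complexes, lay at 3133 to 3884 in vector and 2613 to 2776 in LACTB libraries. It fell by 0.35 (adjusted p = 0.014), missed the threshold with equal totals (-0.16, adjusted p = 0.22), with quantile normalization (-0.25, adjusted p = 0.05) and without vector library 3, LACTB library 2 or LACTB library 3 (-0.26, -0.32 and -0.35, adjusted p = 0.052, 0.078 and 0.056), and differed by 0.11 with length and GC removed (adjusted p = 0.2). DEPTOR, an inhibitor of TOR, lay at 127 to 151 in vector and 132 to 139 in LACTB libraries.

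The 2 S6 kinases moved in opposite directions. RPS6KB1, the main kinase of ribosomal protein S6, lay at 266 to 359 in vector and 419.6 to 487 in LACTB libraries. It rose by 0.48 (SE 0.17, adjusted p = 0.021), with a difference of 0.35 after median centring (adjusted p = 0.075), of 0.35, 0.50 and 0.42 without vector library 3, LACTB library 1 or LACTB library 2 (adjusted p = 0.082, 0.052 and 0.1), and of 0.0 with length and GC removed (adjusted p = 1.0). RPS6KB2, its paralog (chromosome 11, 67428460 to 67435408, plus strand), stood at 3436, 2869 and 3940.3 in vector and 2164, 1957 and 2088 in LACTB libraries. All LACTB values were well below the vector values, and the mean went from 3415 ± 536 to 2069.6 ± 105 (SD, n = 3 each). RPS6KB2 fell by 0.71 (SE 0.12, adjusted p = 5.9e-05) and by 0.68 with length and GC removed (adjusted p = 0.00033), and its call held under all 17 alternatives.

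Of the FOXO factors, FOXO3 rose, FOXO4 fell and FOXO1 did not pass the test. FOXO3 (chromosome 6, 108559835 to 108684774, plus strand) stood at 372, 612 and 504 in vector and 826, 892 and 798 in LACTB libraries. All LACTB values were higher, and the mean went from 496 ± 120 to 838 ± 48.6 (SD, n = 3 each). FOXO3 rose 1.69-fold, by 0.78 (SE 0.16, adjusted p = 0.00044), and by 0.53 with length and GC removed (adjusted p = 0.0034). The call held under all 17 alternatives. FOXO4 (chromosome X, 71096197 to 71103535, plus strand) stood at 414, 543 and 527 in vector and 338, 261 and 352 in LACTB libraries, all lower. It fell by 0.64 (SE 0.17, adjusted p = 0.0038) and by 0.44 with length and GC removed (adjusted p = 0.024), but lost its call with equal totals (-0.45, adjusted p = 0.05). FOXO1 read 248, 463 and 436 in vector and 257, 351 and 355 in LACTB libraries. Vector library 1 was the lowest of all 6, and the difference of -0.21 (adjusted p = 0.41) was -0.50 without it (adjusted p = 0.021) and -0.48 once length and GC were removed (adjusted p = 0.067, or 0.012 with a replicate block as well). FOXO3, RHEB and PDPK1 have near-identical copies in the genome that could share their reads, so their counts are uncertain to that extent.

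Differences between 2 genes within 1 library do not move with a factor that scales the whole library, so 14 pairs of related members were compared this way. TSC1 and TSC2 are partners in 1 complex, RICTOR and RPTOR are the scaffolds of the 2 TOR complexes, and the other pairs are paralogs. The log2 ratio was higher in all LACTB than in all vector libraries for 8 pairs and lower for 3, and 3 pairs overlapped. With length and GC removed 8 were higher and 2 lower, the same pairs apart from GSK3A over GSK3B, which then overlapped (-0.27). The direction depends on which gene is put first, and PIK3CA, PIK3R1 and FOXO3 stand in several pairs. How often pairs of other genes lie apart was not computed. Of all single tested genes 59.7% did. For each pair that did not overlap the two-sided exact permutation p was 0.1, the smallest that 3 against 3 libraries allow, and 0.13 adjusted over the 14 pairs, so no pair can reach 0.05. PIK3R1 over PIK3R2 differed most, by 1.82 (-3.63, -3.42 and -3.92 in vector against -2.03, -1.74 and -1.74 in LACTB libraries), and by 1.00 with length and GC removed. PIK3C2A over PIK3C2B differed by 1.58 (1.08 with length and GC removed), FOXO3 over FOXO4 by 1.43 (0.98) and RPS6KB1 over RPS6KB2 by 1.19 (0.68). The FOXO3 and FOXO4 counts were about equal in vector cells (log2 ratio -0.02 ± 0.17, SD, n = 3) and FOXO3 was ahead with LACTB (1.41 ± 0.31). PIK3CA gained on PIK3CB by 0.82 (0.68 with length and GC removed) and on PIK3CD by 1.17 (0.48). PIK3R1 gained on PIK3R3 by 1.07 (0.79), and TSC1 on TSC2 by 0.68 (0.33). AKT1 lost against AKT2 by a small but even step, from 0.57 ± 0.03 to 0.33 ± 0.02, and FOXO1 differed from FOXO3 by -0.997. Ratios of PHLPP1 over PHLPP2 (-0.57), RICTOR over RPTOR (0.96) and IRS1 over IRS2 (0.02) overlapped between the groups.

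**Figure D4:**
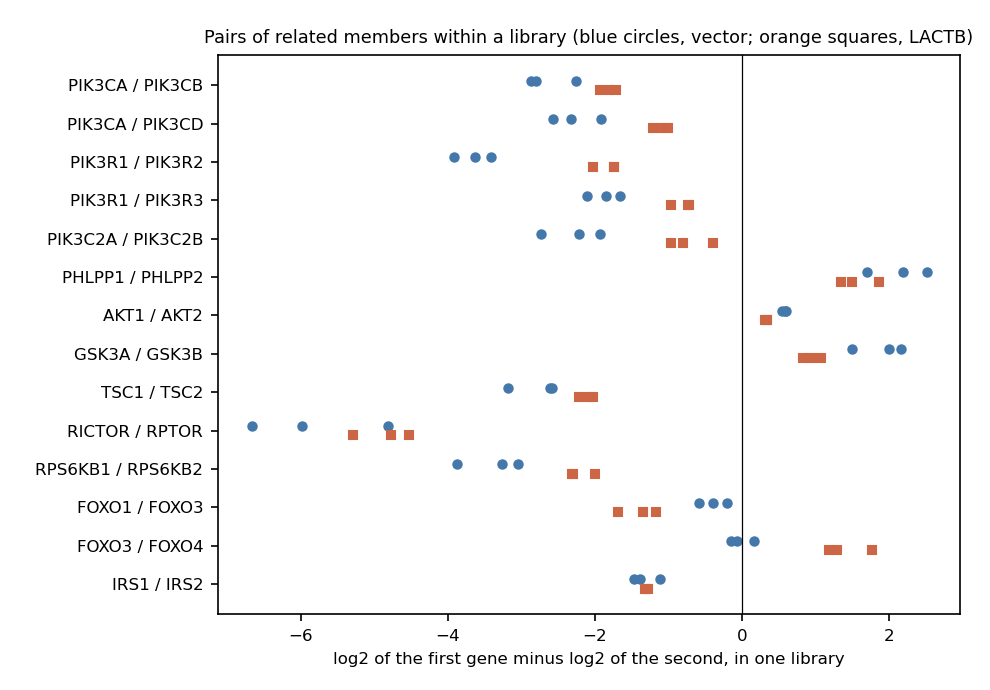
Log2 of the first gene minus log2 of the second within each library (x axis) for 14 pairs of related members, with blue circles for the 3 vector and orange squares for the 3 LACTB libraries. The groups are apart for 11 pairs and overlap for PHLPP1/PHLPP2, RICTOR/RPTOR and IRS1/IRS2.

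Expressed per base of the longest transcript as a share of each family, the same values estimate how much each paralog contributed. The longest transcript may not be the one expressed, which was not tested, so close shares such as those of AKT1 and AKT2 cannot be ranked. PIK3R2 made up 79.6% ± 2.84 of the p85 family in vector and 66.0% ± 3.45 in LACTB cells (SD, n = 3 each), while PIK3R1 went from 3.64% ± 0.553 to 10.6% ± 0.759 and PIK3R3 from 16.7% ± 2.57 to 23.3% ± 2.91. On this scale PIK3R2 remained the largest of these 3 in all 6 libraries. PIK3CA went from 5.42% ± 1.20 to 9.98% ± 0.354 of the class IA catalytic transcripts, and PIK3CB was the largest at 51.5% ± 2.72 and 54.3% ± 2.77. FOXO4 was the largest of the FOXO transcripts in vector cells at 53.2% ± 3.61, and FOXO3 was the largest in LACTB cells at 43.0% ± 3.61, up from 23.7% ± 1.48. RPS6KB1 went from 8.91% ± 2.28 to 18.0% ± 1.82 of the S6 kinase transcripts, and GSK3B from 11.2% ± 2.50 to 19.2% ± 1.29 of the GSK3 transcripts. AKT1 went from 48.5% ± 0.541 to 44.3% ± 0.322 of AKT1 and AKT2 together, with no overlap. Each of these shares except that of PIK3CB was apart between the groups (two-sided exact permutation p = 0.1, the smallest possible). Division by length does not remove the dependence of the differences on length and GC. With that removed, GSK3A over GSK3B overlapped between the groups (-0.27), while RPS6KB1 over RPS6KB2 stayed apart (0.68).

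**Figure D5:**
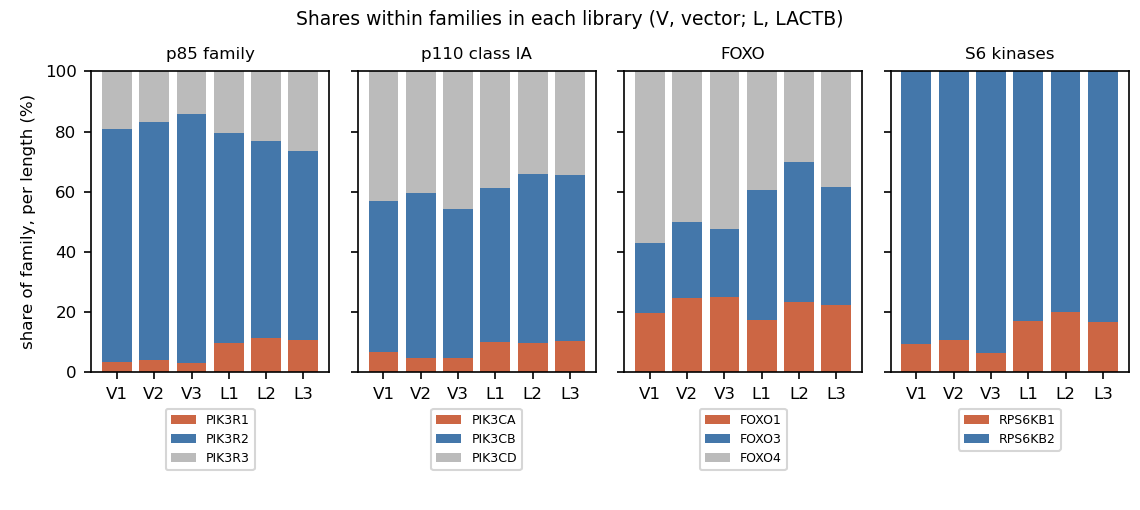
Share of each gene in its family (y axis, percent, values per kilobase of the longest transcript) in vector (V1 to V3) and LACTB (L1 to L3) libraries. PIK3R1 (bottom of the first panel) lies at 3.13% to 4.23% in vector and 9.81% to 11.3% in LACTB libraries, and FOXO3 (middle of the third panel) at 22.6% to 25.4% and 39.2% to 46.4%.

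Genes around the pathway were counted from lists that were chosen by function, with the share of all tested genes that rose (27.4%) or fell (24.6%) as background. These shares were 38.4% and 14.8% with equal totals, 20.7% and 32.1% after median centring, and 23.7% and 24.9% with length and GC removed. Of 17 other tested PI3K and AKT genes, 6 rose and 3 fell (median 0.27), 3 rose and 3 fell with length and GC removed, and 7 rose and 1 fell with equal totals. PIK3CG, for the class IB subunit p110 gamma of leukocytes, stood at 15.9, 11.2 and 10.7 in vector and 151, 152 and 155 in LACTB libraries. It rose by 3.52 (SE 0.31, adjusted p = 8.4e-09) from a low level, and reached the filter only through its LACTB values. PTPRC, the defining leukocyte marker, lay between 0.0292 and 14.6 in all libraries. SGK1, an AKT-related kinase that TOR complex 2 activates, fell by 0.82 (adjusted p = 9.2e-06), and INPPL1, a lipid phosphatase, by 0.34 (adjusted p = 0.017; -0.15 with equal totals, adjusted p = 0.25). Of 6 tested adaptor and RAS activator genes that act with the insulin receptor (GRB10, SH2B1, SH2B2, SHC1, SOS1 and SOS2), 3 rose and 1 fell, and 2 rose and 1 fell with length and GC removed. GRB10, an adaptor that restrains the insulin receptor, went from 2701 ± 303 to 7535 ± 362 (SD, n = 3 each). It rose by 1.49 (SE 0.11, adjusted p = 1e-09) and by 1.42 with length and GC removed. SOS1, a RAS activator, rose by 1.09 (adjusted p = 0.00017; 0.44 once length and GC were removed, adjusted p = 0.11) and SHC1, an adaptor, fell by 0.41 (adjusted p = 0.0033; -0.22 with equal totals, adjusted p = 0.052).

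In the arm that brings amino acid signals to TOR complex 1 on the lysosome, 11 of 29 tested genes fell and 6 rose (median -0.20). With equal totals 8 rose and 5 fell, and with length and GC removed 4 rose and 7 fell. The shares of all tested genes moved with the scaling as well. The median of the list was below that of all tested genes as deposited (0.046). So it was with equal totals (-0.009 against 0.238) and with length and GC removed (-0.065 against 0.014). LAMTOR1, the membrane anchor of the Ragulator complex, fell by 0.71 (adjusted p = 2.7e-05) and NPRL2, a subunit of the inhibitor GATOR1, by 0.74 (adjusted p = 7.5e-05). SESN3, a stress-induced inhibitor of TOR complex 1, rose by 1.02 (adjusted p = 4.4e-05; 0.33 with length and GC removed, adjusted p = 0.072) and FNIP1, a partner of folliculin, by 0.84 (adjusted p = 0.00017; 0.28 with length and GC removed, adjusted p = 0.051). Of 9 other TOR complex and TSC genes, 1 rose and 4 fell, but 3 rose and 3 fell with equal totals, and 2 and 3 with length and GC removed. PRR5, a subunit of TOR complex 2, went from 661 ± 67.4 to 185 ± 26.9 (SD, n = 3 each). PRR5 fell by 1.84 (SE 0.17, adjusted p = 2.1e-08) while its paralog PRR5L rose by 0.69 (adjusted p = 0.0042). TBC1D7, the third TSC subunit, fell by 0.83 (adjusted p = 1.4e-05) and by 1.03 with length and GC removed.

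Of 10 genes through which TOR complex 1 acts on translation, 2 rose and 3 fell. This balance turned with the scaling, to 3 and 0 with equal totals, 0 and 4 after median centring, and 0 and 4 with length and GC removed. The shares of all tested genes moved too, to 38.4% and 14.8% with equal totals and 20.7% and 32.1% after median centring. PDCD4, an inhibitor of translation, and LARP1, which binds mRNAs of the translation machinery, rose by 0.46 and 0.34 (adjusted p = 0.021 and 0.031), and neither passed after median centring. EIF4EBP1, the repressor of the cap-binding factor, fell by 0.39 (adjusted p = 0.0086; 0.17 with length and GC removed, adjusted p = 0.088). EEF2K, the kinase that slows elongation, fell by 0.41 (adjusted p = 0.0089; -0.22 with equal totals, adjusted p = 0.19). Of 9 tested AMPK subunits and related genes, 5 rose and 2 fell (median 0.37), while with length and GC removed 2 rose, 1 fell and 6 had no call (median 0.08). PRKAA1, a catalytic subunit of this energy sensor, went from 700.4 ± 161 to 1481 ± 160.1 (SD, n = 3 each) and rose by 1.10 (SE 0.16, adjusted p = 5.9e-06). The gamma subunits parted, with PRKAG2 higher by 0.74 (adjusted p = 0.00043) and PRKAG1 lower by 0.53 (adjusted p = 0.0038; -0.33 with equal totals, adjusted p = 0.057). Of 12 PP2A subunits, 4 rose and 2 fell, or 2 and 2 with length and GC removed. PPP2R5E and PPP2R5C, regulatory subunits, rose by 0.92 (adjusted p = 1.9e-05) and 0.52 (adjusted p = 0.0013). With length and GC removed these were 0.36 (adjusted p = 0.033) and 0.17 (adjusted p = 0.14, no call). The scaffold PPP2R1A fell by 0.52 (adjusted p = 0.00057).

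Of 23 tested genes known as FOXO targets, 8 rose, 7 fell and 8 did not pass the test, with a median of 0.02 against 0.05 for all tested genes. The list holds 4 of the members, of which PIK3CA, RICTOR and IRS2 rose and INSR fell. SESN3, given with the TOR inhibitors, is on this list too. SOD2, the mitochondrial superoxide dismutase, stood at 3833, 4295 and 3213 in vector and 1374, 1452 and 1538 in LACTB libraries, all lower. It fell by 1.37 (SE 0.12, adjusted p = 9.8e-09), and CITED2, a transcriptional co-regulator, by 1.17 (SE 0.14, adjusted p = 9.7e-07). Both fell also with equal totals, by 1.18 and 0.97. SOD2 had no length or GC value, so it was not fitted with these removed and is in neither count for that setting. The split of the list moved with the scaling, to 8 higher and 4 lower with equal totals, and to 5 higher and 7 lower both after median centring and with length and GC removed. So did the shares of all tested genes, to 38.4% and 14.8% with equal totals and 20.7% and 32.1% after median centring.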

How the data were processed

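RNA was sequenced in 3 vector and 3 LACTB libraries of LN229 cells. The labels do not call them separate cultures, so p-values measure only how far these libraries spread, which can be technical. Per the labels' protocols, Trizol and chloroform were used for the RNA and NEB reagents for the libraries. The submitters' processing notes name HISAT2 and hg38. The sources used here do not name the read counter, strand setting or normalization. The deposited signal values are normalized read counts that are not whole. A step worth 1 read left at best 33.5% to 58% of low values whole (tolerance 0.05), so reads were not recovered, depth is unknown, and the planned branch for normalized values was used.

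Of 24489 rows, 9 symbols stood on more than 1 row and the row with the higher mean was kept. Values were taken as log2(value + 1), which understates changes of low genes, and genes averaging 1 CPM or more were fitted with limma 3.58.1 under R 4.3.3 (robust and trend settings, no covariate, two-sided, Benjamini-Hochberg over all tested genes, threshold 0.05). The fit was tested on simulated data. Length, GC and positions came from GENCODE 29 (GRCh38), in which 94.8% of symbols matched; the longest transcript stood for a gene, and length and GC (98.2% of tested genes) were removed from each library with splines of 5 degrees of freedom each. Ratios of related members were tested by exact permutation. Plots used matplotlib 3.10.9 under Python 3.11.15. The members, gene lists and tests were chosen with earlier results of these data known. All members are named, with values in every library for the core members and any other that passed the threshold with a difference of at least 0.58. Of each other list at most the 2 genes with the smallest adjusted p in each direction are named, and some are not reported here. Alternatives were other scalings, filters, pseudocounts and limma settings, removal of length and GC, a replicate block, leaving out each library, and a threshold of 0.01.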

Additional observations from a re-analysis of the deposited data

How the results depend on the processing

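Of the 15 members that rose, 6 kept their call under all 17 alternatives (PIK3CA, PIK3R1, PIK3R4, MTOR, FOXO3 and IRS1), and of the 8 that fell, 2 did (PIK3C2B and RPS6KB2). The count of members that rose was 8 with length and GC removed, also with a replicate block, and 10 to 16 when 1 library was left out. The count that fell was 4 with quantile normalization, 2 with equal column totals, 4 at an adjusted p of 0.01, and 4 to 10 when 1 library was left out (5 without LACTB library 2 and 4 without LACTB library 3). Shares of all tested genes are given above for the scalings and for length and GC removed. They were not computed for calls kept under all 17 alternatives, a replicate block, the 0.01 threshold or a library left out. Those counts therefore have no background. Directions turned with length and GC removed, with or without a replicate block, for PIK3CB (-0.26), PIK3C3 (-0.49), INPP4B (-0.28) and MLST8 (0.11). They turned with equal column totals for PIK3CD (0.09), AKT2 (0.09) and DEPTOR (0.17), with quantile normalization for AKT2 (0.08), and after median centring for PHLPP1 (-0.002) and RHEB (-0.01). When 1 library was left out PHLPP1 ranged from -0.11 to 0.30 and DEPTOR from -0.08 to 0.04. The ratio of IRS1 over IRS2 differed by -0.10 with quantile normalization, by -0.16 with length and GC removed, and by -0.05 to 0.13 when 1 library was left out. The cause of these changes was not tested. Replicate numbers did not pair the libraries (correlations of same-numbered deviations 0.02, 0.18 and 0.003), and a replicate block gave 15 members higher and 8 lower, with no member's call changed against the fit without it. With length and GC removed the block took the count lower from 8 to 9, by the call of FOXO1 (-0.48, adjusted p 0.067 to 0.012). The number of reads is unknown, so the precision of low genes such as RICTOR rests on the spread of 3 libraries a group.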
